A study of Mus musculus with 2 samples.

Results

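Nr3c1, Nr1d1, Nr1d2, Rara, Rxra, Vdr and Thra are 7 genes of the nuclear receptor family, taken by name from the 32285 gene rows of 2 single-nucleus libraries that measured RNA and open chromatin in the same nuclei. Both libraries held nuclei of cells sorted from colon and small intestine of mice 26 to 33 weeks old as CD4+CD44+ cells negative for CD8a, CD11c, CD45R and F4/80, a gate for effector T cells. Mice of the control group were Zfp362flox/flox. Those of the knockout group were CD4creZfp362flox/flox, with Cre driven by Cd4 sequences, which act in the T cell lineage; both groups thus carry the floxed allele, and no group with Cre alone was analysed here. There was 1 library per genotype, the design text names 7 mice without saying how they were divided or pooled, and both gut segments entered each library. Every difference below is therefore between libraries or between nuclei of 1 library, with no replicate check, and each interval covers counting error only.

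Nuclear receptors are transcription factors, most of which switch activity when a small lipophilic ligand binds. Nr3c1 encodes the glucocorticoid receptor, which moves to the nucleus with its hormone and represses many inflammatory genes in lymphocytes. Nr1d1 and Nr1d2 encode REV-ERBalpha and REV-ERBbeta, heme-binding repressors that close a feedback loop of the circadian clock. Rara encodes the retinoic acid receptor alpha, Vdr the vitamin D receptor and Thra the thyroid hormone receptor alpha; these 3 commonly bind DNA as dimers with the retinoid X receptor, which Rxra encodes. Retinoic acid made in the gut imprints intestinal homing on T cells and favours Foxp3 induction.

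Nuclei were sorted into 3 classes by their UMIs (unique RNA molecules counted). Foxp3-positive nuclei had at least 1 UMI of Foxp3, the regulatory T cell factor. Other Cd3-positive nuclei had no Foxp3 UMI and at least 1 of Cd3e, Cd3d or Cd3g, which encode signalling chains of the T cell receptor complex, and Cd3-negative nuclei had none of the 4 genes. The control library held 420, 2111 and 1645 nuclei of these classes and the knockout library 249, 1164 and 933. Median UMIs per nucleus were 2576, 2101 and 1852 in the control library and 4297, 2748 and 1993 in the knockout library, so nuclei were also drawn down to 1000 UMIs each, leaving out 2, 51 and 91 shallower nuclei of the control library and 6, 24 and 52 of the knockout library. Nuclei with more than 4196 UMIs, which is 2 times the median of all, held 56.5%, 32.5% and 8.65% of the UMIs of these classes in the control library and 87.0%, 62.7% and 19.6% in the knockout library. The libraries shared 11 barcode sequences.

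The labelled cell type was only partly borne out by its markers. The 12 T cell markers summed to 4803 and 4528 UMIs per 1000000 UMIs (CPM) in other Cd3-positive nuclei of the control and knockout libraries and to 1396 and 1472 CPM in Cd3-negative nuclei, where Cd3e, Cd3d and Cd3g are at 0 by definition and the other 9 were all detected. The 10 markers of innate lymphoid cells, such as Kit and Il1r1, summed to 4140 and 4050 CPM in Cd3-negative nuclei against 1939 and 2086 CPM in other Cd3-positive nuclei. The 9 B and plasma cell markers summed to 7907 and 6013 CPM in Cd3-negative nuclei, with Ms4a1 at 0 in both libraries, and the 11 epithelial markers to 3393 and 11408 CPM there. Without the deepest Cd3-negative nucleus of each library the epithelial sums were 113 and 1282 CPM, while the B and plasma cell sums were 8004 and 6185 CPM and those of innate lymphoid markers 4187 and 4165 CPM. The Cd3-negative class is thus a mixture, and the part of its composition in each difference was not tested except where narrower gates are given. Zfp362 itself stood at 10.8, 9.35 and 7.47 CPM in Foxp3-positive, other Cd3-positive and Cd3-negative nuclei of the control library and at 8.72, 6.61 and 3.24 CPM in the knockout library. These intervals overlap in each class, and counts over the whole gene do not show whether the floxed part was lost.

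RefSeq promoter windows (GRCm38.p6, 250 bases before to 50 after a start) were matched for 5 of the 7 genes: Rara with 4 starts, Rxra with 2, and Vdr, Nr1d1 and Nr1d2 with 1 each. They are shown for Nr1d1, whose promoter peak differed between classes, and for Nr1d2 and Rara, which hold one of 3 motifs searched on both strands: AGGTCA, the half-site of many of these receptors; CACGTG, the E-box bound by CLOCK and BMAL1; and AGAACA, a half-site of glucocorticoid response elements. Each is the 250 bases before the start, 5′ to 3′ on the gene's strand, with motif letters in capitals: Nr1d1 at chr11:98775378-98775627 (minus strand), Nr1d2 at chr14:18239107-18239356 (minus strand) and Rara, from the second of its starts, at chr11:98937468-98937717 (plus strand).
Nr1d1: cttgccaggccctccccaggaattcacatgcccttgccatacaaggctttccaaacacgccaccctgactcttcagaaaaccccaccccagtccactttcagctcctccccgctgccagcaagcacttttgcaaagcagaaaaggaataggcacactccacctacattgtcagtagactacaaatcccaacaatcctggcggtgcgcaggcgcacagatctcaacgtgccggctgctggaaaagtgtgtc
Nr1d2: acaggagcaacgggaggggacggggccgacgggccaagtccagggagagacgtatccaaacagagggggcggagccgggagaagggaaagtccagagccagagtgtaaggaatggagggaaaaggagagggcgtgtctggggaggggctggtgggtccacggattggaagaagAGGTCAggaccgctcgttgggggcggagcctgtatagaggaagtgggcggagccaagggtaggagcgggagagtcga
Rara: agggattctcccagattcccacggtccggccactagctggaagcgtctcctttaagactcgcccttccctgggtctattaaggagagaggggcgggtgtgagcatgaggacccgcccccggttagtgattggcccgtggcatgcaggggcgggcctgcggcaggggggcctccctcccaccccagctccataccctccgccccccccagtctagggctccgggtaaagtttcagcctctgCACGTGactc
The Nr1d2 window holds AGGTCA 77 bases before the start, and the Rara window CACGTG 10 bases before it; none of the 3 motifs is in the Nr1d1 or Vdr windows or in the first Rxra window. Further AGGTCA matches lay in the fourth Rara window, 33 bases after the start, and in the second Rxra window, 48 and 87 bases before it, the latter on the other strand. Of 32851 windows of the same length, 16.3% held AGGTCA, 7.15% CACGTG and 19.0% AGAACA, so a match in 1 gene is a description and not a site.

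Nr3c1 was by far the most abundant of the 7 genes and was lower in Cd3-negative nuclei. In the control library it stood at 2741 CPM in Foxp3-positive nuclei, 2898 CPM in other Cd3-positive nuclei and 1301 CPM in Cd3-negative nuclei. In the knockout library the values were 3513, 3721 and 1579 CPM. Both libraries gave the same order, and the Cd3-negative interval did not reach that of either other class. Per kilobase of gene, Nr3c1 (108.877 kb) stood at 26.6 CPM in other Cd3-positive nuclei of the control library, ahead of Nr1d2 at 4.53, Nr1d1 at 2.27, Rara at 0.841, Thra at 0.25, Vdr at 0.102 and Rxra at 0.0440 CPM per kb.

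**Figure D1:**
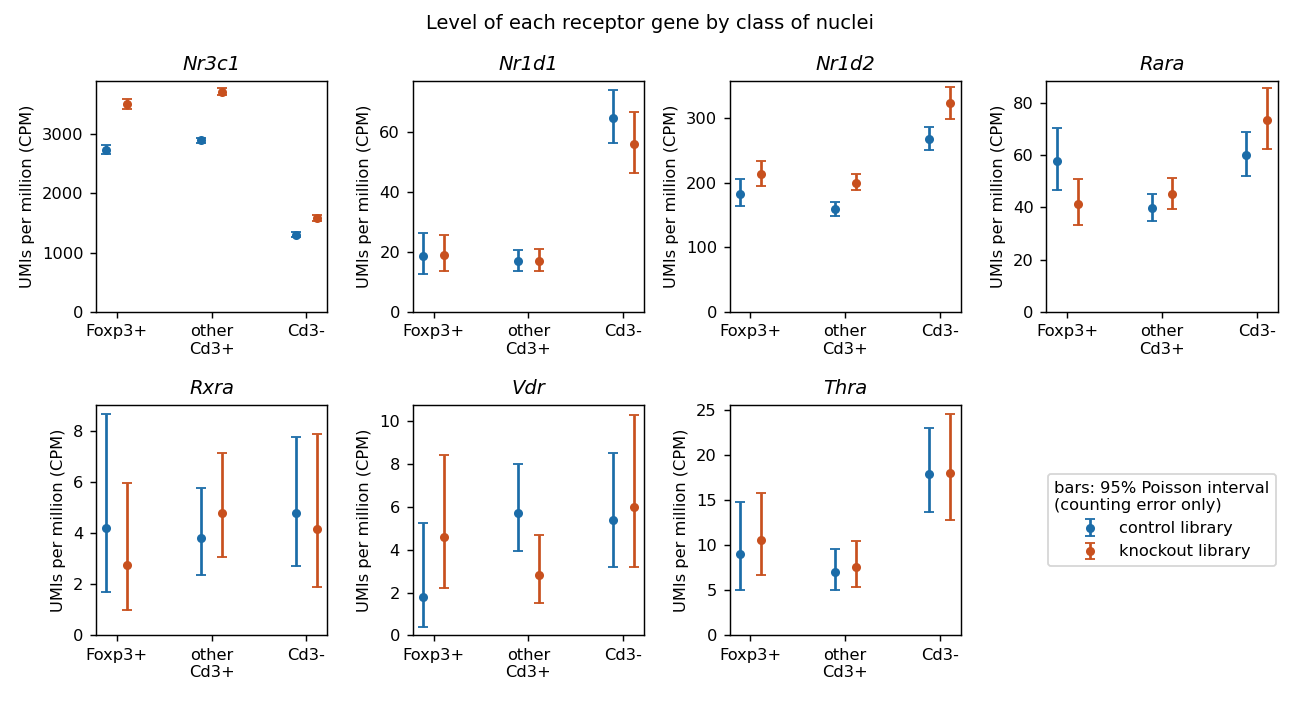
UMIs per 1000000 UMIs (CPM; y axis from 0, a scale of its own for each gene) of the 7 genes in Foxp3-positive, other Cd3-positive and Cd3-negative nuclei (x axis), with 1 point per library and its 95% Poisson interval. Nr3c1 is lowest in Cd3-negative nuclei of both libraries, whereas Nr1d1, Nr1d2 and Thra are highest there.

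The log2 ratio of Cd3-negative over other Cd3-positive nuclei was -1.16 (95% interval -1.20 to -1.11) for Nr3c1 in the control library and -1.24 (-1.29 to -1.18) in the knockout library. A gene counts here as past the fold when this ratio is at least 0.5 in size with at least 100 UMIs over both arms. In the control library all 5 receptor genes with enough UMIs were past it (Nr3c1 lower; Nr1d1, Nr1d2, Rara and Thra higher), beside 33.6% of the 7790 genes with enough UMIs. In the knockout library 4 of 4 were (the same without Thra, which had 77 UMIs), beside 33.3% of 7022 genes. In both libraries together 11.6% of genes were higher and 12.2% lower, so a difference of this kind between these classes is common.

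At equal depth the Nr3c1 difference was one of shares of nuclei as well as of means. With 1000 UMIs drawn per nucleus, 80.9% (79.1 to 82.6%) of other Cd3-positive nuclei of the control library had an Nr3c1 UMI against 44.0% (41.5 to 46.5%) of Cd3-negative nuclei. The knockout library gave 85.5% (83.3 to 87.5%) and 47.0% (43.7 to 50.4%). Foxp3-positive nuclei stood at 84.0% and 87.2%. The median Nr3c1 count was 2 per nucleus in Foxp3-positive and in other Cd3-positive nuclei of the control library, 3 in those of the knockout library and 0 in Cd3-negative nuclei of each.

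**Figure D2:**
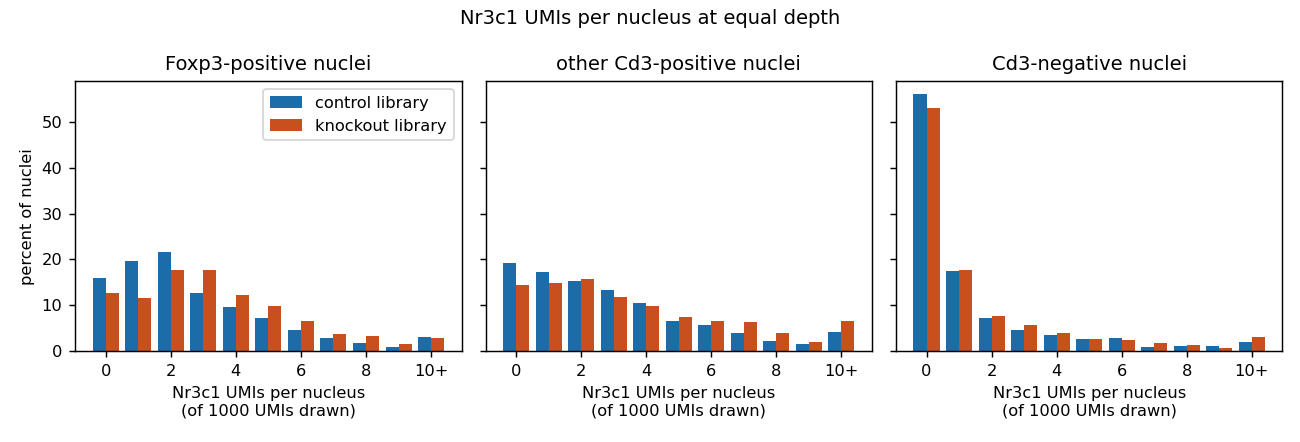
Percent of nuclei (y axis, bars from 0) by their number of Nr3c1 UMIs among 1000 drawn (x axis), for the control and knockout libraries in each class. In Cd3-negative nuclei 56.0% and 53.0% had none, and a tail of 19.1% and 21.7% had at least 3, as did 48.2% and 54.9% of other Cd3-positive nuclei.

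The Cd3-negative class split by Kit, a receptor tyrosine kinase carried by many innate lymphoid cells. At equal depth Nr3c1 stood at 527 CPM (477 to 580) in Kit-positive and 2347 CPM (2240 to 2458) in Kit-negative nuclei of the control library. In the knockout library these were 652 CPM (581 to 730) and 2853 CPM (2693 to 3020). The Kit-negative nuclei also held Trac, the T cell receptor alpha constant gene, at 325 and 236 CPM, against 29.4 and 53.6 CPM in Kit-positive nuclei. With nuclei that had a UMI of Trac, Trbc1, Trbc2 or Bcl11b left out as well, the Cd3-negative over other Cd3-positive ratio of Nr3c1 was -2.37 and -2.78. With classes read from the drawn-down counts, which puts more T lineage nuclei in the Cd3-negative class, it was -0.65 and -0.63.

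Among other Cd3-positive nuclei, Nr3c1 was higher with Tbx21, which encodes the type 1 helper T cell factor T-bet. The values at equal depth were 3972 CPM (3759 to 4195) with and 2929 CPM (2849 to 3011) without a Tbx21 UMI in the control library, and 4836 (4577 to 5107) and 3572 CPM (3447 to 3700) in the knockout library. Gates were read from all UMIs and overlap, and gated nuclei were deeper before the draw.

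Open chromatin over the annotated 5′ end of Nr3c1 was lower in Cd3-negative nuclei. That over exons farther into the gene, at the start interval given in the deposited gene coordinates, was not. Peak values are counts scaled to 1000000 counts over those peaks that the libraries have in common (peak CPM). The peak over the annotated 5′ end of the gene, chr18:39519060-39519993 (mm10; first exon and sequence just upstream), stood at 53.4 peak CPM in Foxp3-positive, 55.8 in other Cd3-positive and 22.7 in Cd3-negative nuclei of the control library. The knockout library gave 44.6, 58.0 and 22.6 peak CPM. The log2 ratio of Cd3-negative over other Cd3-positive nuclei was -1.30 (-1.62 to -1.03) and -1.36 (-1.68 to -1.06). Within Cd3-negative nuclei this peak stood at 10.1 (6.72 to 14.2) and 13.4 (9.30 to 18.4) peak CPM with Kit and at 38.3 (30.8 to 46.8) and 35.3 (27.3 to 44.4) without.

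The mouse gene has several alternative first exons, and the farthest upstream of them is known for its use in T lymphocytes; whether this peak belongs to it was not tested. The 3 peaks over exons 27.8 to 30.3 kb into the gene lie on or near the start interval of the deposited gene coordinates, chr18:39487232-39490674. The 5′ end peak lies 28386 bases outside that interval. These 3 peaks gave ratios between -0.02 and 0.41, of which 1 of 6 had an interval without 0 (0.41, 0.12 to 0.64, in the knockout library). The largest of these, chr18:39489525-39490305, stood at 57.7 and 62.6 peak CPM in other Cd3-positive and Cd3-negative nuclei of the control library and at 61.0 and 61.1 in the knockout library. A peak 4.06 kb upstream of the gene, chr18:39523017-39523949 (between genes), went the other way, at 8.0 and 17.6 peak CPM in the control library and 8.04 and 14.7 in the knockout library, with ratios of 1.13 (0.67 to 1.61) and 0.87 (0.37 to 1.36). Of 17 Nr3c1 regions shared by both libraries, 9 had at least 100 counts in each, of which 1 was at least 0.5 higher and 1 at least 0.5 lower in both libraries, beside 17.0% and 14.3% of all 42581 such regions.

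Nr1d1 was the member with the largest difference between classes. It stood at 18.6, 16.8 and 64.8 CPM in Foxp3-positive, other Cd3-positive and Cd3-negative nuclei of the control library, on 31, 97 and 217 UMIs. The knockout library gave 18.8, 17.0 and 55.9 CPM on 41, 85 and 121 UMIs. The Foxp3-positive and other Cd3-positive intervals overlap in each library, and the Cd3-negative interval lies above both. The log2 ratio of Cd3-negative over other Cd3-positive nuclei was 1.94 (1.60 to 2.31) and 1.71 (1.30 to 2.13).

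The ratio had a larger point value at equal depth, though its intervals overlap those over all UMIs. In the knockout library the drawn value rests on 49 UMIs in Cd3-negative and 11 in other Cd3-positive nuclei. At 1000 UMIs per nucleus it was 2.30 (1.73 to 2.95) and 2.48 (1.56 to 3.62), and with the nuclei above 4196 UMIs left out it was 2.47 and 2.74. The share of nuclei with an Nr1d1 UMI at equal depth was 6.56% (5.38 to 7.91%) and 4.99% (3.65 to 6.65%) in Cd3-negative nuclei against 1.36% (0.905 to 1.96%) and 0.965% (0.483 to 1.72%) in other Cd3-positive nuclei. No class here is known to lack these receptors. As a gauge of free Foxp3 RNA, Foxp3 had a UMI in 5 of 803 (0.623%) and 2 of 486 (0.412%) Cd3-zero nuclei with Kit or Ncr1 at the same depth. Their median depth was 2049 and 2161 UMIs before the draw. Foxp3 had 607 and 386 UMIs in Foxp3-positive nuclei and Nr1d1 217 and 121 in Cd3-negative nuclei. The Foxp3 share therefore does not measure free Nr1d1 RNA, which was not tested.

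Kit-positive nuclei of the Cd3-negative class held more Nr1d1 than Kit-negative ones: 104 CPM (82.3 to 129) against 41.5 (28.4 to 58.5) in the control library and 75.1 (52.3 to 104) against 33.7 CPM (18.4 to 56.6) in the knockout library, where the intervals overlap.

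The Nr1d1 promoter was more open in Cd3-negative nuclei. The peak chr11:98775129-98776055 (first exon and sequence upstream; the printed Nr1d1 sequence lies inside it) stood at 38.3, 33.1 and 73.0 peak CPM in Foxp3-positive, other Cd3-positive and Cd3-negative nuclei of the control library and at 34.7, 38.7 and 71.2 in the knockout library. The ratio of Cd3-negative over other Cd3-positive nuclei was 1.14 (0.92 to 1.37) and 0.88 (0.68 to 1.11), and 1.35 and 1.14 without deep nuclei. An intronic peak, chr11:98772387-98773220, gave 0.94 (0.58 to 1.22) and 0.98 (0.60 to 1.31). Between them lies the largest Nr1d1 peak, chr11:98773529-98774458 (intron), which stood at 99.6 and 102 peak CPM in other Cd3-positive and Cd3-negative nuclei of the control library and at 99.1 and 115 in the knockout library, with ratios of 0.04 (-0.13 to 0.19) and 0.21 (0.06 to 0.37). Of 14 shared regions with enough counts in the Nr1d1 window, 3 were higher and 0 lower in both libraries, beside the same 17.0% and 14.3%.

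**Figure D3:**
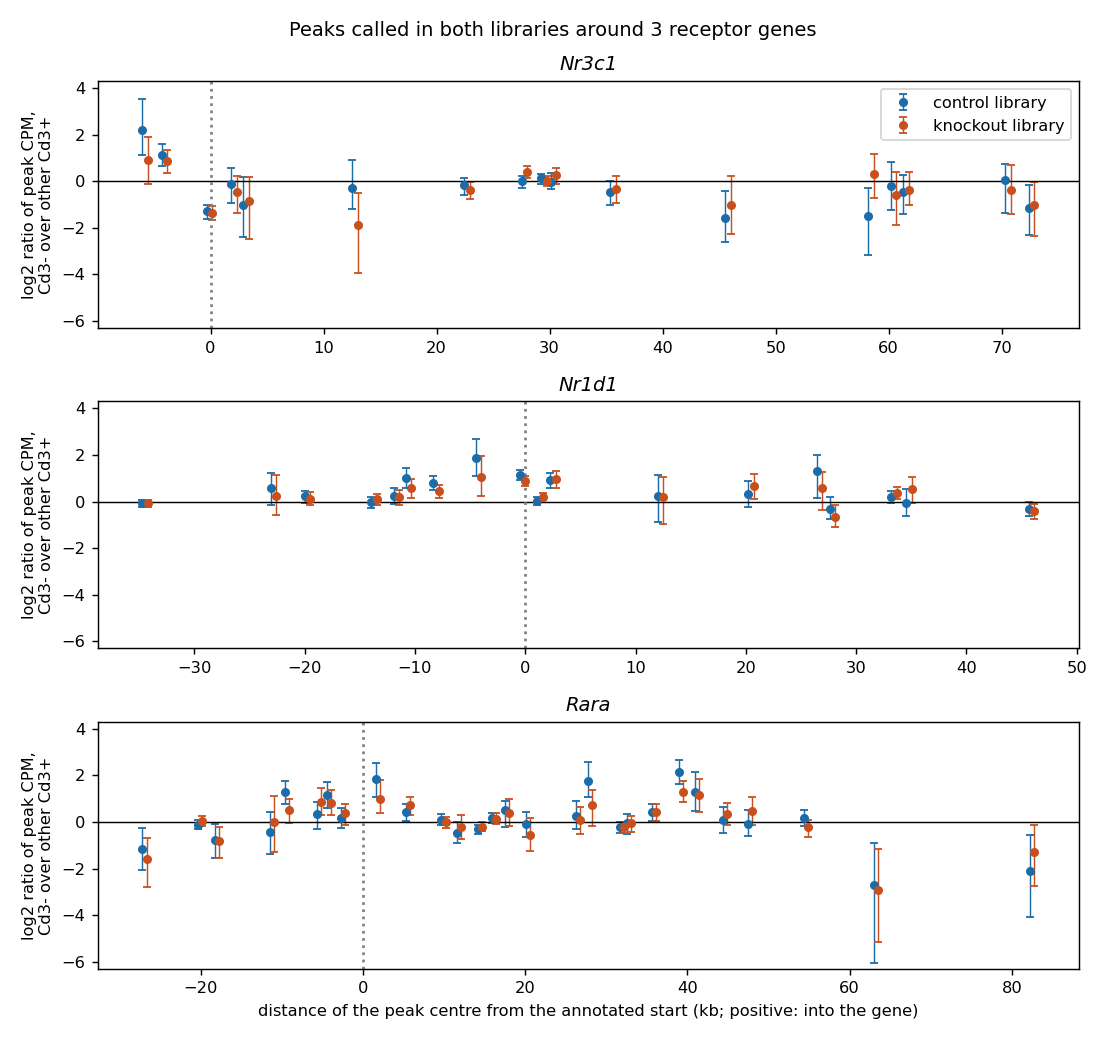
Log2 ratio of peak CPM in Cd3-negative over other Cd3-positive nuclei (y axis, 95% counting interval) against the distance of the peak centre from the annotated start in kb (x axis) for every region within 50 kb of Nr3c1, Nr1d1 and Rara called in both libraries (1 colour per library). The Nr3c1 peak at its annotated 5′ end is at -1.30 and -1.36. Those near 30 kb, at the start interval of the deposited gene coordinates, are close to 0. The Nr1d1 peak at its start is at 1.14 and 0.88.

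Nr1d2, the paralogue of Nr1d1, was broadly expressed with a smaller difference in the same direction. It stood at 183, 159 and 268 CPM in Foxp3-positive, other Cd3-positive and Cd3-negative nuclei of the control library and at 213, 200 and 323 CPM in the knockout library. The Cd3-negative over other Cd3-positive ratio was 0.75 (0.62 to 0.89) and 0.69 (0.55 to 0.83). Per kilobase of gene, Nr1d1 lay below Nr1d2 in other Cd3-positive nuclei, at 2.27 against 4.53 CPM per kb in the control library and 2.30 against 5.70 in the knockout library. In Cd3-negative nuclei Nr1d1 stood at 8.76 against 7.65 CPM per kb in the control library and 7.56 against 9.20 in the knockout library, so their order on this scale differed between the libraries. Without the scaling Nr1d2 was well above Nr1d1 there, at 268 against 64.8 CPM and 323 against 55.9 CPM. Whether UMIs rise with gene length was not tested.

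The Nr1d2 promoter peak showed no difference like that of the RNA. The peak chr14:18238262-18238928 (first exon) stood at 102 and 101 peak CPM in other Cd3-positive and Cd3-negative nuclei of the control library and at 109 and 106 in the knockout library, with ratios of -0.02 (-0.16 to 0.14) and -0.05 (-0.18 to 0.13). A small peak 1.54 kb upstream, chr14:18240277-18241054, was at 3.94 and 9.75 peak CPM and at 5.49 and 7.97. Its ratio was 1.30 (0.61 to 1.94) in the control library and 0.54 (-0.20 to 1.08) in the knockout library, where the interval includes 0. Among other Cd3-positive nuclei, Nr1d2 at equal depth was lower with a UMI of Gata3, the type 2 helper T cell factor: 105 CPM (83.0 to 130) against 172 (150 to 196) in the control library and 161 (129 to 200) against 254 CPM (216 to 297) in the knockout library. Over all UMIs the control values were 141 CPM (127 to 156) with and 174 (160 to 190) without Gata3. Those of the knockout library were 193 CPM (177 to 209) and 212 (192 to 233), whose intervals overlap.

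Rara was higher in Cd3-negative than in other Cd3-positive nuclei of both libraries. It stood at 57.6, 39.7 and 60.0 CPM in Foxp3-positive, other Cd3-positive and Cd3-negative nuclei of the control library and at 41.3, 45.1 and 73.5 CPM in the knockout library. Cd3-negative nuclei were above other Cd3-positive nuclei in both, with ratios of 0.60 (0.32 to 0.88) and 0.71 (0.40 to 1.01), although the knockout value was -0.31 when nuclei were drawn down to 500 UMIs. Over all UMIs, Foxp3-positive nuclei stood apart in the control library alone, at 0.54 (0.18 to 0.89) over other Cd3-positive nuclei. The knockout value was -0.12 (-0.49 to 0.23). At equal depth these ratios were 0.68 (-0.05 to 1.33) and 0.27 (-0.82 to 1.16). Both of these intervals include 0, so a difference in the control library alone was not shown at equal depth. In this comparison over all UMIs, Rara was the only receptor gene past the fold in the control library, beside 10.7% of genes. In the knockout library 0 receptor genes were, beside 6.84%. The control value of 0.54 fell to 0.45 when Foxp3-positive nuclei also needed a Cd3 UMI, and to 0.10 at 500 UMIs per nucleus.

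Some peaks inside Rara were higher in Cd3-negative nuclei, and its largest peak was slightly lower. The ratio at the promoter peak with the printed sequence had an interval around 0 in both libraries. The promoter peak chr11:98937321-98938161, which contains the printed Rara sequence, stood at 47.7 and 51.4 peak CPM in other Cd3-positive and Cd3-negative nuclei of the control library and 49.8 and 49.5 in the knockout library (ratios 0.11, -0.12 to 0.33, and -0.01, -0.26 to 0.20). An intronic peak 39.2 kb into the gene, chr11:98966498-98967459, stood at 5.50 and 24.7 peak CPM in the control library and 8.15 and 19.8 in the knockout library, with ratios of 2.16 (1.65 to 2.66) and 1.28 (0.84 to 1.76). Within Cd3-negative nuclei it stood at 31.1 (24.9 to 37.8) and 25.0 (19.1 to 31.4) peak CPM with Kit and at 16.6 (11.9 to 22.6) and 12.6 (8.22 to 18.8) without. A second intronic peak, 1.80 kb into the gene at chr11:98929185-98930059, gave 1.83 (1.06 to 2.54) and 0.99 (0.38 to 1.80). The largest Rara peak, chr11:98941804-98942658 (intron), was somewhat lower in Cd3-negative nuclei, with ratios of -0.31 (-0.50 to -0.15) and -0.21 (-0.37 to -0.005). Of 25 shared regions with enough counts near Rara, 5 were higher and 2 lower in both libraries, beside 17.0% and 14.3%, so such differences were common among all regions. The 2 lower ones, chr11:98900388-98901372 and chr11:98909376-98910313, lie upstream of Rara, over exons of Wipf2 and Cdc6. Among the higher ones, chr11:98923096-98924228 lies over an exon of Cdc6.

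Rxra, the shared dimer partner, was near the detection limit. Its level lay between 2.75 and 4.81 CPM in the 6 combinations of class and library, on 6 to 24 UMIs, and all intervals overlap. At equal depth 0.322 to 0.478% of nuclei had an Rxra UMI, apart from Foxp3-positive nuclei of the knockout library, where it was 0 of 243 (3 nuclei would be 1.23%, and the Clopper-Pearson upper limit is 1.51%). These shares rest on at most 9 nuclei per class and library, so no order among the classes was read from them. The share of Foxp3 in Cd3-zero nuclei is of like size. Foxp3 had 607 and 386 UMIs in Foxp3-positive nuclei, however, so its share is no gauge of free Rxra RNA. Its promoter peak, chr2:27676749-27677569, was open in every class, at 18.3 to 24.2 peak CPM. An intronic peak 52.2 kb into the gene, chr2:27728203-27729049, was at 8.07 and 2.01 peak CPM in other Cd3-positive and Cd3-negative nuclei of the control library and at 7.25 and 4.10 in the knockout library, with ratios of -1.98 (-2.95 to -1.04) and -0.81 (-1.64 to -0.11).

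Vdr was as sparse. It stood at 1.80, 5.71 and 5.38 CPM in Foxp3-positive, other Cd3-positive and Cd3-negative nuclei of the control library, on 3, 33 and 18 UMIs, and at 4.59, 2.80 and 6.01 CPM in the knockout library, on 10, 14 and 13 UMIs. At equal depth it had a UMI in 0 of 418 Foxp3-positive nuclei of the control library (3 nuclei would be 0.718%, upper limit 0.879%) and in 0 of 1140 other Cd3-positive nuclei of the knockout library (0.263%, upper limit 0.323%). These limits are on nuclei with a UMI, not on nuclei that express the gene. No difference between classes was detectable in both libraries at this depth. The promoter peak chr15:97907852-97908770 (first exon) stood at 23.0 to 28.5 peak CPM in all classes, with Cd3-negative over other Cd3-positive ratios of 0.24 (-0.04 to 0.58) and 0.13 (-0.20 to 0.44).

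Thra was low in every class and higher in Cd3-negative nuclei. It stood at 9.01, 7.10 and 17.9 CPM in Foxp3-positive, other Cd3-positive and Cd3-negative nuclei of the control library and at 10.6, 7.61 and 18 CPM in the knockout library. The Cd3-negative over other Cd3-positive ratio was 1.33 (0.74 to 1.95) on 60 and 41 UMIs and 1.24 (0.56 to 1.93) on 39 and 38 UMIs. Thra and Nr1d1 lie tail to tail on opposite strands and overlap over 1075 bases at chr11:98767932-98769006. The counting is not stated to use strand, so UMIs from that stretch may not be told apart; how many there are was not counted. Their windows also share 16 regions. The Thra promoter peak, chr11:98741469-98742320, gave 0.19 (-0.08 to 0.45) and 0.36 (0.10 to 0.63), against 1.14 and 0.88 at the Nr1d1 promoter.

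**Figure D4:**
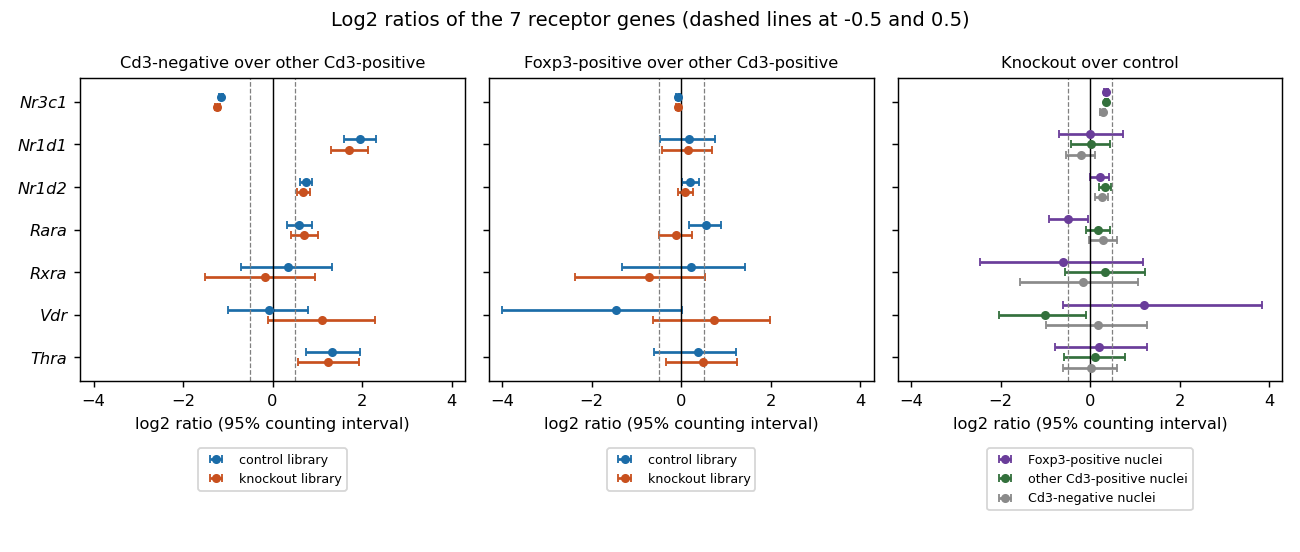
Log2 ratios (x axis, 95% counting interval, dashed lines at -0.5 and 0.5) of the 7 genes for Cd3-negative and for Foxp3-positive over other Cd3-positive nuclei, 1 colour per library, and for knockout over control, 1 colour per class. Nr3c1 lies near -1.2 and Nr1d1 near 1.8 in the first panel, and no gene with at least 100 UMIs lies past 0.5 in the third.

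Between the genotypes, 0 of the receptor genes with enough UMIs was past the fold in Foxp3-positive, other Cd3-positive or Cd3-negative nuclei, beside 14.5%, 7.29% and 6.28% of all genes. Only Nr3c1, Nr1d2 and Rara had enough UMIs in every class, and Nr1d1 in other Cd3-positive and Cd3-negative nuclei. With so few genes, a count of 0 is also what these shares would give. Nr3c1 nevertheless stood higher in the knockout library in each class, by a log2 ratio of 0.36 (0.31 to 0.41), 0.36 (0.33 to 0.39) and 0.28 (0.21 to 0.34). Of 5015 genes with enough UMIs in each class, 2.59% stood at least 0.25 higher in all 3. In the classes taken singly these shares were 21.1% of 5133, 14.5% of 8080 and 14.0% of 6271 genes. At equal depth the Nr3c1 ratios were 0.26, 0.32 and 0.24. Nr3c1 was higher in the knockout library in 14 of the 16 clusters with at least 50 nuclei. The clusters share the same libraries and are not replicates, and the share of all genes with such a count was not computed. In Cd3-negative nuclei without Trac, Trbc1, Trbc2 or Bcl11b the Nr3c1 ratio was -0.04. At the Nr3c1 peak over its 5′ end, the knockout over control ratios were -0.26 (-0.60 to 0.11), 0.06 (-0.14 to 0.22) and 0.00 (-0.39 to 0.38) in the same classes. Over all 17 shared Nr3c1 regions they were -0.19 (-0.32 to -0.01), -0.03 (-0.12 to 0.05) and -0.02 (-0.14 to 0.10). The Foxp3-positive value has an upper limit near 0, and the share of other windows that differ as much was not computed.

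Nr1d2 also stood higher in the knockout library, by 0.22 (0.01 to 0.43), 0.33 (0.20 to 0.46) and 0.27 (0.12 to 0.41) in the same order of classes. At equal depth these were 0.04 (-0.56 to 0.61), 0.53 (0.28 to 0.78) and 0.12 (-0.11 to 0.33), so only other Cd3-positive nuclei kept an interval above 0. Rara stood at -0.48 (-0.91 to -0.05) in Foxp3-positive nuclei, on 96 and 90 UMIs (-0.25, -1.40 to 0.77, at equal depth), and at 0.18 (-0.09 to 0.46) and 0.29 (-0.02 to 0.60) in the other classes. Vdr stood at -1.0 (-2.04 to -0.09) in other Cd3-positive nuclei on 33 and 14 UMIs. The intervals of Nr1d1, Rxra and Thra include 0 in every class. Deep nuclei and genotype moved together, as their shares above show, and with 1 library each genotype and library cannot be told apart.

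Grouping nuclei without regard to these genes gave the widest range. The kept nuclei of both libraries formed 20 clusters from genes that excluded the 7 receptors, Foxp3, Zfp362, the Cd3 genes and the T cell receptor segments, and 16 had at least 50 nuclei; they are given by number and leading genes. Nr3c1 ran from 429 CPM (400 to 461) in cluster 1 (Prkg2, Mpdz; Cd3 UMIs in 6.90% of nuclei) to 5948 CPM (5715 to 6188) in cluster 12 (Spink13, Hspa1a; 74.0%). Next to the top were cluster 2 (Gzma, Il21, Il12rb2) at 5234 and cluster 10 (Il5, Il13, Pparg) at 4825 CPM. These values sum both libraries, whose orders differed. In the control library cluster 12 (64 nuclei) stood at 4424 CPM, below clusters 14, 2 and 10 at 5006, 4922 and 4677 CPM. In the knockout library cluster 12 (105 nuclei) was highest, at 6632 CPM. At the low end, clusters 5 and 1 stood at 405 and 411 CPM in the control library. Low Nr3c1 was not limited to clusters with few Cd3 UMIs. Cluster 15 (Lef1, Myb), with Cd3 UMIs in 75% of nuclei, stood at 707 CPM (587 to 843), close to cluster 13 (Palld, Fstl4; 12.5%) at 780 CPM (688 to 881).

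Also with both libraries summed, Nr1d1 ran from 0 UMIs in clusters 15 and 16 (upper 95% limits 21.2 and 25.7 CPM) to 103 CPM (88.3 to 118) in cluster 1. The 4 clusters with Cd3 UMIs in under 20% of nuclei, numbers 1, 5, 11 and 13, stood at 67.4 to 103 CPM. The other 12 stood at 0 to 32.9 CPM, the highest being cluster 4, whose median depth was 5458 UMIs and in which 84.5% of nuclei had a Cd3 UMI. Without that cluster the other 11 lay at or below 13.0 CPM. Nr1d2 ran from 90.5 CPM in cluster 16 (Eomes, Gzmk, Ccl5) to 362 CPM in cluster 5 (H2-DMb2, Siglecg), Rara from 17.2 CPM in cluster 15 to 81.0 in cluster 13, and Thra from 0 UMIs in cluster 16 to 32.5 CPM in cluster 1.

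**Figure D5:**
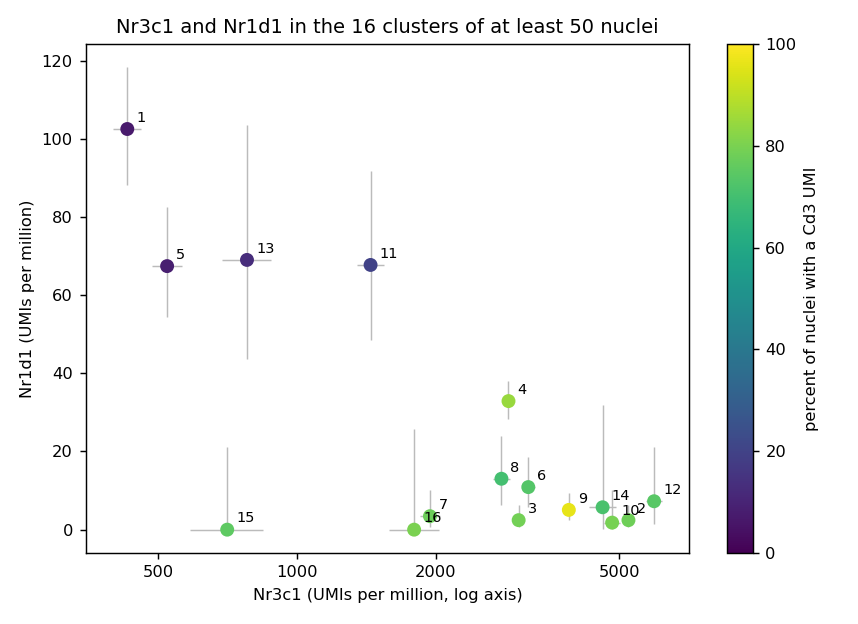
Nr1d1 (y axis, CPM) against Nr3c1 (x axis, CPM, log scale) in the 16 clusters with at least 50 nuclei, both libraries summed, with 95% Poisson intervals, cluster numbers and colour for the percent of nuclei with a Cd3 UMI. The 4 dark clusters have Nr1d1 at 67.4 CPM or more and Nr3c1 at 1445 CPM or less, while cluster 15 has low Nr3c1 and no Nr1d1 UMI.

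Over the 16 clusters the log2 levels of Nr1d1 and Nr1d2 correlated at r = 0.80, Nr1d1 and Rara at 0.75, Nr1d2 and Thra at 0.78 and Nr1d1 and Nr3c1 at -0.46. These are descriptions over clusters that share libraries and differ in depth. Among 5310 genes with at least 500 UMIs, those most like Nr3c1 were Abcb1a, a drug efflux transporter (r = 0.947), Ugp2, a UDP-glucose enzyme (0.925), and Got1, an aspartate aminotransferase (0.908). Those most like Nr1d1 were F2r, a thrombin receptor (0.943), Tmem176a (0.942) and Tmem176b (0.940), and those like Nr1d2 included Plpbp (0.901) and Il7r, the interleukin 7 receptor (0.891). For Rara they were Phlda1 (0.909), Ywhaq (0.876) and Iffo2 (0.866) and for Thra Ccdc117 (0.868), Dnajb4 (0.823) and Appl2 (0.816). Rxra and Vdr, with 84 and 91 UMIs in all, had no gene above 0.791.

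The pathway genes around these receptors gave the setting of the class difference. Of 24 clock genes, 15 had at least 100 UMIs in both libraries, and 4 were past the fold upwards and 2 downwards in Cd3-negative over other Cd3-positive nuclei of both, beside 11.6% and 12.2% of genes. Among the higher were Npas2, a partner of BMAL1, at 1.95 and 1.71, Nfil3, a repressor under REV-ERB control, at 1.08 and 1.01, and Bhlhe40, a clock repressor, at 0.63 and 0.54. Among the lower was Hlf, a PAR-domain factor, at -0.98 and -1.35. Arntl, which encodes BMAL1, was at 0.06 (-0.09 to 0.21) and -0.14 (-0.32 to 0.03). The median of the tested clock genes was 0.31 and 0.44, against -0.09 over all genes in both libraries.

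Of 26 glucocorticoid genes, 22 had enough UMIs, and 5 were higher and 1 lower in both libraries, beside 11.6% and 12.2% of all genes, with medians of 0.32 and 0.34. Higher were Mt1, a metallothionein, at 0.63 and 2.05, Il1r2, a decoy interleukin 1 receptor, at 0.96 and 0.64, Il7r at 0.74 and 0.66, Nfkbia, an NF-kappaB inhibitor, at 0.66 and 0.65, and Nr3c2, the mineralocorticoid receptor, at 0.78 and 0.63. Tgfbr2, a TGF-beta receptor chain, was lower at -0.80 and -0.66. The well known targets Fkbp5, Tsc22d3 and Per1 lay on both sides of 0: Fkbp5 was at -0.49 (-0.75 to -0.23) and -0.56 (-0.90 to -0.24), Tsc22d3 at 0.49 (0.35 to 0.63) and 0.21 (0.04 to 0.38), and Per1 at 0.31 (0.18 to 0.45) and 0.46 (0.31 to 0.61). Between genotypes, where Nr3c1 stood 0.28 to 0.36 higher, these 3 lay between -0.36 and 0.33.

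Of 23 retinoid genes, 7 had enough UMIs, of which 1 was higher and 1 lower in both libraries, beside the 11.6% and 12.2% of all genes that also stand beside the next lists. Dhrs3, a retinaldehyde reductase, was higher in Cd3-negative nuclei at 0.75 and 0.55, and Ccr9, the retinoic-acid-induced small intestine homing receptor, was lower at -1.82 and -1.07. Ccr9 stood higher in the knockout library in Foxp3-positive (0.82, 0.55 to 1.11) and Cd3-negative nuclei (0.94, 0.56 to 1.32), and at 0.19 (0.03 to 0.35), under the fold, in other Cd3-positive nuclei. Of 14 vitamin D genes, 3 had enough UMIs, 0 were higher, and Orai1, a calcium channel, was the 1 lower, at -0.65 and -0.71. Of 12 thyroid hormone genes, 4 had enough, and 1 was higher and 0 lower in both libraries.

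Of 16 co-regulators, 13 had enough UMIs, of which 1 was higher and 2 lower in both libraries, beside 11.6% and 12.2% of all genes. Ncoa2, a co-activator, and Med14, a mediator subunit, were lower at -0.81 and -0.76 and at -0.77 and -0.66. Ncor1, the co-repressor through which REV-ERB proteins act, was at 0.62 in the control library and below the fold in the knockout library. Of 28 other nuclear receptors, 9 had enough UMIs in both libraries, of which 1 was higher and 1 lower. Esr1, the oestrogen receptor alpha, was higher at 1.39 and 1.13 in Cd3-negative nuclei. In Foxp3-positive over other Cd3-positive nuclei, 0 genes of these 7 lists were past the fold in both libraries, beside 1.41% of genes higher and 0.667% lower.

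Between genotypes few of these genes were past the fold. In Foxp3-positive nuclei 1 of 20 glucocorticoid genes was higher and 3 lower in the knockout library, beside 6.12% and 8.40% of genes. In other Cd3-positive nuclei 2 of 21 were higher and 1 lower, beside 3.09% and 4.20%, and in Cd3-negative nuclei 1 of 22 each way, beside 3.05% and 3.24%. Of the clock genes, 1 of 12, 1 of 15 and 0 of 14 were higher in these classes and 0 lower.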

How the data were processed

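The authors deposited, per library, a matrix of UMI counts per gene and counts per open-chromatin peak; the submitters' processing notes name Cell Ranger ARC 2.0.1, and per the file headers and features coordinates the build is mm10. These deposited counts are raw, not normalized, and peaks were called per library. Barcodes were kept from 500 UMIs and 300 genes upwards, with mitochondrial UMIs no more than 10% of the total: 4176 of 4223 control and 2346 of 2391 knockout barcodes, with 10803590 and 9348999 UMIs deposited. No doublet caller was run; leaving out deep nuclei is the alternative. UMIs were summed per class and library and scaled to CPM with 95% Poisson intervals. Log2 ratios used a pseudocount of 0.5 UMI and exact conditional intervals; peak intervals used fragments (2 counts each, since 91.7% and 90.7% of peak counts were even). Shares used hypergeometric draws to 1000 UMIs and Clopper-Pearson intervals. A count of 0 is given with the share that 3 counts would make. Peak regions merge overlapping peaks of both libraries (73219 of 95717 shared). Leiden clusters used 2000 variable genes, 30 components and 15 neighbours (scanpy 1.11.5, Python 3.11.15). With 1 library per genotype there is no test. The ratio script was tested on simulated data. The members and gene lists were chosen with earlier results of these data known. The rule for named genes took all 7 receptors, up to 2 genes at either end of each list comparison (at least 20 UMIs), any list gene with at least 100 UMIs and a stated role, and for likeness the 3 genes of highest Pearson r of log2(CPM + 1) among those with at least 500 UMIs. The alternatives changed the depth drawn, the class gates, the scaling, the fold and the peak window. The gene annotation was the GENCODE set of that build. No protein sequences were used. Some genes and gates are not reported here.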

Additional observations from a re-analysis of the deposited data

How the results depend on the processing

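No paired analysis was possible because each genotype has 1 library and the labels give no replicate numbers. Of the 10 Cd3-negative over other Cd3-positive and Foxp3-positive over other Cd3-positive ratios past the fold, 9 kept their sign under all 14 alternatives; Rara in the knockout library turned to -0.31 at 500 UMIs per nucleus. Counts of receptor genes past the fold moved as follows. With a fold of 1, the Cd3-negative over other Cd3-positive counts were 3 (control) and 2 (knockout) and the Foxp3-positive count in the control library 0. With a fold of 0.25, the knockout over control counts were 2, 2 and 3 in Foxp3-positive, other Cd3-positive and Cd3-negative nuclei. Knockout over control counts were also 2 in other Cd3-positive nuclei at 1000 UMIs, 1 in Foxp3-positive and 1 in other Cd3-positive nuclei at 500, 1 in Cd3-negative nuclei at 2000, 2 there with nuclei of at least 2000 UMIs only, and 1 in Foxp3-positive nuclei with the total taken without mitochondrial, ribosomal protein and top 50 genes. The Foxp3-positive over other Cd3-positive count in the control library was 2 at 1000 UMIs and with classes read after the draw, and 0 at 500 UMIs, with a Cd3 UMI required or with Cd247 counted as Cd3; in the knockout library it was 2 at 500 UMIs, and 1 with classes read after the draw or without deep nuclei. Leaving out nuclei with Trac, Trbc1, Trbc2 or Bcl11b, shared barcodes, or deep nuclei in the peak data was chosen after seeing the data. Depth limits Rxra, Vdr and Thra, and no setting replaces a second library.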

Other observations

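A few very deep nuclei carried genes of other tissues within the Cd3-negative class. The deepest Cd3-negative nucleus of the knockout library had 64301 UMIs, 2.97% of its class, of which 21872 were Tff2 or Muc6, which encode products of mucous glands. The deepest of the control library had 41028 UMIs, 10936 of them Tff2 or Muc6. With all deep nuclei left out, the Cd3-negative over other Cd3-positive ratio of Nr3c1 was -1.16 (control) and -1.19 (knockout).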
